A study of Homo sapiens with 42 samples.

Results

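The regions described here are the stretches of open chromatin around EGFR on the short arm of human chromosome 7, without those the authors' annotation names EGFR. They were measured by ATAC-seq, in which the Tn5 transposase inserts sequencing adapters into accessible DNA, in 4 EGFR-mutant lung adenocarcinoma lines, PC9, H1975, HCC827 and HCC2935. A member was any region on chromosome 7 with a start from 50000000 to below 60000000 (build hg38) in a line's table of read counts, not named EGFR by the authors' annotation, and with a mean of at least 5 counts per library. There were 5808 members among 1712125 regions in the 4 tables: 3771 in HCC827, 825 in HCC2935, 638 in PC9 and 574 in H1975. The regions named EGFR and left out numbered 359, 23, 36 and 22 in that order. The annotation covers only part of each table, so 62, 46, 52 and 35 members, without annotation or with another gene's name, lay inside the EGFR gene body.

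Each line had 3 libraries per group, 42 libraries in 14 groups. Control cells grew 21 days without drug and 3 days in DMSO. Drug-tolerant persister (DTP) cells, the survivors of long exposure to a targeted drug, received 500 nM osimertinib, an irreversible inhibitor of mutant EGFR, for 24 days. The combo group had 21 days of 500 nM osimertinib and then 3 days of 150 nM AZD5153. In PC9 and H1975 an AZD5153 group had 21 days without drug and 3 days of 150 nM AZD5153. The labels do not say whether osimertinib stayed on during those last 3 days of the combo. Each line is a single established culture, and replicates within it are described as biological triplicates of the same line. The extraction text of the labels describes an H3K27ac immunoprecipitation, whereas the titles and the design give ATAC-seq, and the values are read as ATAC-seq here. At control, all 5 epithelial marker genes had an open promoter in each line, and 0 to 1 of 3 blood markers did. Of the lung adenocarcinoma markers 2 to 3 of 3 were open, and of the fibroblast markers 1 to 2 of 3, with the highest at 30.9 to 44.5 CPM. The part of such cells in the values was not tested.

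EGFR is the receptor tyrosine kinase on which these tumour cells depend, and the band around it is one of the stretches of the genome most often gained in lung adenocarcinoma and glioblastoma. Its neighbours are carried along when the band is gained: SEC61G, a subunit of the channel that moves new proteins into the endoplasmic reticulum, and VSTM2A lie before it, and LANCL2, a LanC-like protein, and VOPP1, once named for its co-amplification with EGFR, lie after it. HCC827 is widely known to carry extra copies of EGFR. Every additional copy of a stretch brings additional template for the transposase, so in bulk ATAC-seq more copies and more open chromatin per copy cannot be told apart, and copy number was not measured in these files.

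The window begins with genes of 7p12 (IKZF1, FIGNL1, DDC, GRB10, COBL), passes a gene-poor middle, and ends with a cluster of housekeeping genes after EGFR (NIPSNAP2, PSPH, SUMF2, CHCHD2) in front of the centromere. The promoters of 4 genes are shown because they mark 4 places along this order: far upstream, just upstream, just downstream and further downstream of EGFR. Each sequence is the 250 bases before the RefSeq gene start (GRCh38.p14), read 5′ to 3′ on the gene's strand, which is the minus strand for all 4. Capitals mark GC boxes (GGGCGG), the letters CCAAT, AP-1 sites (TGANTCA) and the letters TATAAA, each searched on both strands.
FIGNL1, chr7:50450351-50450600: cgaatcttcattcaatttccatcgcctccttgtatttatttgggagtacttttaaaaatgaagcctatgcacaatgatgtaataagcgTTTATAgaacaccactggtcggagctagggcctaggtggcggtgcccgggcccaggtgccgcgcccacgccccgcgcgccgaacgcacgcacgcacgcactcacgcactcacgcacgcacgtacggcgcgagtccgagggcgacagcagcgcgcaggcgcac
SEC61G, chr7:54759212-54759461: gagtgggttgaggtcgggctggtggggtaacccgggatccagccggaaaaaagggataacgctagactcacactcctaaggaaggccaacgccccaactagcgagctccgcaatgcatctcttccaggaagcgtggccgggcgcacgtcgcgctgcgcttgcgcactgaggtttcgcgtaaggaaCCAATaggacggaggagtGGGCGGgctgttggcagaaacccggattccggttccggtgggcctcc
VOPP1, chr7:55571869-55572118: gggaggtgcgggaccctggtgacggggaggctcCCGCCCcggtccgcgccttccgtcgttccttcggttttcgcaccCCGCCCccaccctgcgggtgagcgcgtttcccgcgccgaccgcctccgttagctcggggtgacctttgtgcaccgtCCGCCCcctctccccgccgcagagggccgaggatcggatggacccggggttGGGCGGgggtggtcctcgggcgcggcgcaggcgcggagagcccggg
CHCHD2, chr7:56106477-56106726: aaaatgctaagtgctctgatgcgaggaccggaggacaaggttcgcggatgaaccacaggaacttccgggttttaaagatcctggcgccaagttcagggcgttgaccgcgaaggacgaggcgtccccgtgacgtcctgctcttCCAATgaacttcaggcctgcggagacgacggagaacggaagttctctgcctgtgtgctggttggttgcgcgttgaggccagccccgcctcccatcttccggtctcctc

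The FIGNL1 window holds 1 TATAAA match, the SEC61G window 1 GC box and 1 CCAAT box, the VOPP1 window 4 GC boxes and the CHCHD2 window 1 CCAAT box. VOPP1 has several windows, and of those under a member in all 4 lines the one with the most GC boxes was printed. Its other windows hold 0 to 2. Among 35116 RefSeq promoter windows of the same length, 42.6% hold a GC box, 32.0% a CCAAT box, 6.57% an AP-1 site and 10.7% TATAAA. Of the 34 windows of 25 genes listed for this neighbourhood, 13 hold a GC box, 10 a CCAAT box, 1 an AP-1 site and 5 TATAAA. Their median GC content was 59.2%, against 58.0% for all windows. A match is a description of letters and not of binding.

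The members under these 4 promoters at control already show how HCC827 stood apart. Values are CPM (counts scaled to the size of the library) on a scale set over 82802 regions matched in the 4 tables. At FIGNL1, an ATPase of homologous recombination, HCC827 had 18.6 ± 6.34 (SD, n = 3), between 13.1 and 25.5, beside 26.0 in PC9, 19.7 in H1975 and 23.5 in HCC2935. At SEC61G, HCC827 had 449 ± 41.3, between 401 and 478, beside 61.1 in PC9, 36.9 in H1975 and 27.4 in HCC2935. Thus HCC827 overlapped the other lines at the first promoter, where its mean was the lowest, and lay far above them, with no overlap, at the promoter just before EGFR. VOPP1 had 202 ± 11.6 in HCC827, against 29.3, 12.7 and 11.3. CHCHD2, a protein of the mitochondrial intermembrane space, had 178 ± 33.2 in HCC827, against 116, 96.6 and 72.9. The log2 difference of HCC827 from PC9 was −0.47 ± 0.204 (SE, adjusted p = 0.0498) at FIGNL1, 2.88 ± 0.106 (adjusted p = 1.03e-22) at SEC61G, 2.78 ± 0.133 (adjusted p = 3.18e-19) at VOPP1 and 0.64 ± 0.113 (adjusted p = 1.42e-05) at CHCHD2. The difference at CHCHD2 did not pass the threshold once the wider spread between HCC827 libraries was used for every region.

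Library depth ran from 1724680 to 10062505 counts. The HCC827 libraries were the shallowest, with 1724680 to 4242868, and the least alike, with a biological coefficient of variation of 45% against 0.988% in PC9, 3.2% in H1975 and 10.1% in HCC2935. Replicate 3 of HCC827 stood apart from replicates 1 and 2 in every group: 47.1 to 49.3% of its counts lay in annotated regions outside the window, against 28.6 to 37.7%. In PC9 and H1975 the replicates differed by about the sampling noise (variance over counting noise 0.959 to 1.04 and 0.966 to 1.223), so p-values there rest on very small spreads. For those lines the count with each group's replicates summed and the spread of HCC2935 is given beside the first count.

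The share of each library that fell in members was the first difference between lines. At control it was 41.6, 43.1 and 25.9 counts per 1000 in the 3 HCC827 libraries (36.9 ± 9.55), against 2.8 ± 0.0155 in PC9, 2.69 ± 0.0422 in H1975 and 2.51 ± 0.081 in HCC2935. Every HCC827 library lay above every library of the other lines. Each table has its own regions, and HCC827 lists 4773 regions in the window against 1449 to 2812 elsewhere, of which 79.0% reached the minimum against 22.7 to 56.9%. Over the 161 members matched in all 4 tables the share was 13.9, 13.8 and 10.8 per 1000 in HCC827 (12.8 ± 1.76), against 3.04 in PC9, 2.71 in H1975 and 2.31 in HCC2935. The exact two-sided permutation test gave p = 0.1 for each of these pairs, the smallest value 3 against 3 can give (0.133 after adjustment over 16 comparisons).

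**Figure D1:**
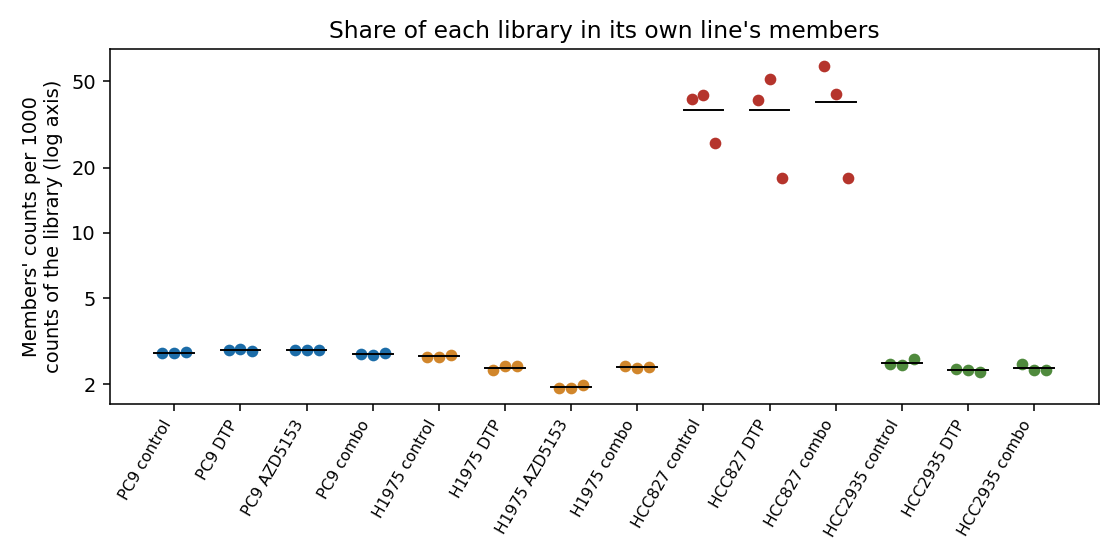
Members' counts per 1000 counts of each library (log axis), 1 point a library, for the 14 groups of the 4 lines. All HCC827 libraries sit between 17.9 and 59.2 per 1000, and within each HCC827 group replicate 3 is the lowest, whereas the libraries of the other lines stay below 3.

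The authors' peak calls, made per library, gave the same order. Outside the EGFR gene body the window held 2464 to 4416 peaks in HCC827 libraries and 224 to 746 in those of the other lines, which is 17.7 to 95.5 against 1.86 to 4.21 per 1000 peaks of the library. Among peaks with −log10 q of at least 5 the counts were 837 to 2093 and 118 to 240. The covered length was 392188 to 886923 bases in HCC827 and 34736 to 93024 bases in the others.

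Along the window the signal of HCC827 was stepped. In bins of 100 kb, the median CPM of its regions at control was 0.544 to 3.15 from the start of the window to 1.72 Mb before the EGFR start. From 1.72 to 0.62 Mb before EGFR it was 7.77 to 8.4 in 11 consecutive bins, with 46 to 133 regions per bin. From 0.62 Mb before to 0.58 Mb after the EGFR start it was 12.7 to 31.8. It was 3.14 to 7.0 from 0.58 to 1.28 Mb after EGFR, and 0.884 to 3.54 from there to the last bins at 3.08 Mb. The bounds of these 5 stretches were set after the control profile had been seen, so no test was run on them.

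The flat stretch from 1.72 to 0.62 Mb before EGFR holds almost no protein-coding gene. Its bins had median CPM of 0.607 to 0.819 in PC9, 0.0898 to 0.231 in H1975 and 0.613 to 1.37 in HCC2935, all within the ranges of the first stretch in the same line (0.273 to 1.16 and 0.0515 to 1.33) except for HCC2935, whose lowest bin lay below it (0.684 to 1.86). The bins of PC9 listed 33 to 48 regions there, more than those of H1975 (5 to 17) and HCC2935 (6 to 17). In HCC827 it held 1283 members, or 117 regions per 100 kb against 11.5 in the first stretch, and 80% of the regions there lay between 5.4 and 12.1 CPM (10th to 90th percentile). In the central stretch with 1328 members the same percentiles were 11.5 and 42. Members of the gene-poor stretch therefore formed a dense, even layer, and those around EGFR a taller and more varied one.

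The steps were present within each HCC827 library. The mean count of the central stretch was 2.94 to 3.81 times that of the stretch just after it in all 9 libraries, and 0.52 to 0.854 times in the libraries of the other lines. It was 2.4 to 3.34 times that of the flat stretch in replicates 1 and 2 and 4.08 to 5.25 times in replicate 3. The flat stretch stood at 1.24 to 2.17 times the first stretch in replicates 1 and 2 but at 0.296 to 0.633 times in replicate 3. The step at 0.58 Mb after EGFR was thus similar in all HCC827 libraries, while the height of the flat stretch over the first stretch depended on the replicate. The difference of replicate 3 in counts outside annotated regions moves with this, and its part was not tested.

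**Figure D2:**
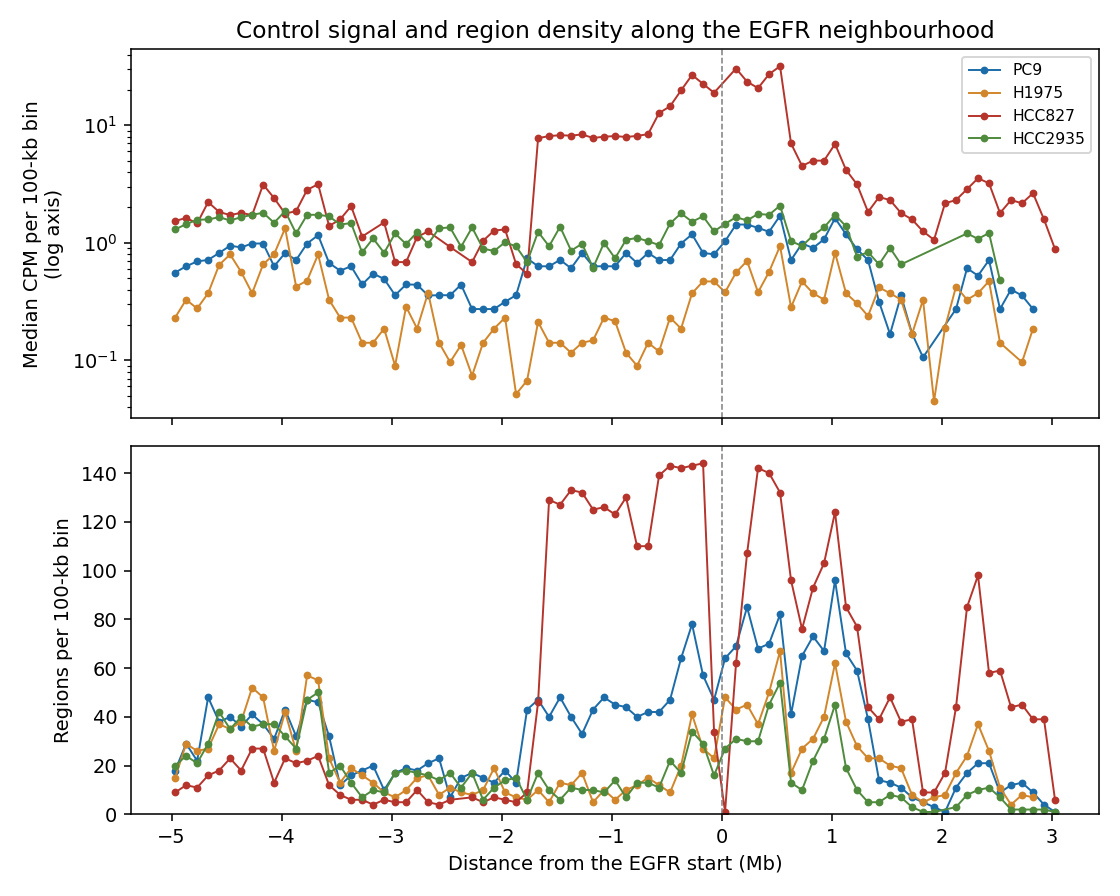
Median CPM (upper panel, log axis) and number of regions (lower panel) per 100-kb bin at control against distance from the EGFR start in Mb, 1 line of points per cell line, EGFR regions left out. HCC827 rises to 7.77 to 8.4 at 1.72 Mb before EGFR, to as much as 31.8 beside it, and returns to 3.54 or less from 1.28 Mb after it.

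To compare the same sites, the lines were fitted together at control over the matched regions (edgeR quasi-likelihood, Benjamini-Hochberg adjustment over 73896 tested regions). Of the 161 matched members 158 were tested. HCC827 differed from PC9 at 127 of them, 107 higher and 20 lower, where 51.3% of all tested regions were called (26.6% higher and 24.7% lower). Against H1975 it was 138, 103 higher and 35 lower (54.9% of all, 25.6% higher and 29.3% lower), and against HCC2935 it was 121, 103 higher and 18 lower (45.2% of all, 22.4% higher and 22.8% lower). The median log2 difference of the members was 1.49, 1.95 and 2.03, or 2.81-fold, 3.85-fold and 4.1-fold, against 0.04, −0.08 and 0.05 over all tested regions. With the median of the members removed, the split was 65 higher and 61 lower, 73 and 66, and 68 and 60. That setting levels the members between libraries beforehand, so a split close to even is largely fixed in advance.

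With the far wider spread of HCC827 used for every region, 77 of 158 members were still higher than in PC9 and 3 lower (18.7% of all regions called), 88 and 10 against H1975 (21.6%), and 86 and 6 against HCC2935 (14.0%). The tables of PC9 and H1975 carry a project code different from that of HCC827 and HCC2935, so only the pairs HCC827 with HCC2935 and PC9 with H1975 lie within 1 code. Among 286 bins of 10 Mb with at least 50 matched regions, this window ranked 3rd by median difference of HCC827 from PC9 (1.82 against 2.24 in the highest), 1st from H1975 (2.46) and 2nd from HCC2935 (2.17 against 2.29). In the pairs without HCC827 it ranked 192nd, 88th and 39th.

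The pairs without HCC827 had members on both sides. HCC2935 differed from PC9 at 88 members, 32 higher and 56 lower (56.0% of all regions called), and from H1975 at 95, 39 higher and 56 lower (60.5%). PC9 differed from H1975 at 112, 69 higher and 43 lower (62.4%). Their median log2 differences were −0.38, −0.07 and 0.37. With the members' median removed the splits became 45 and 37, 38 and 48, and 49 and 49. Within the bin that holds EGFR, PC9 was higher than H1975 at 29 members and lower at 6, with a median of 0.84, and HCC2935 was lower than PC9 at 25 and higher at 4, with a median of −0.81. The gene-poor stretch from 1.72 to 0.62 Mb before EGFR had 8 tested members. There PC9 was higher than H1975 at 7 and lower at none (median 2.29). HCC2935 was higher than H1975 at 6 and lower at none (2.38). The 12 H1975 members of this stretch had mean counts of 2.25, 2.33 and 4.33 in the control libraries. Those means lie below the minimum for a member, against 12.8 to 17.2 in DTP. Such regions became members through the treated libraries, so these counts cannot show a difference of H1975 from the other lines.

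The difference varied with position. In the first bin of 1 Mb, with 33 tested members, the median difference of HCC827 from PC9, H1975 and HCC2935 was 0.22, −0.72 and −0.14, and in the second bin, with 24 members around COBL, it was −0.51, −0.90 and −0.63. In the bin from 54 to 55 Mb all 16 members were higher in HCC827 in each of the 3 pairs, with medians of 3.01, 4.01 and 3.85. From 55 to 56 Mb 52 of 53 were higher in each pair (2.88, 3.76 and 4.13). From 56 to 57 Mb 19, 19 and 21 of 23 were higher, by 1.25, 1.43 and 1.73. HCC827 was therefore level with or below the other lines in the first 2 Mb and above them around EGFR.

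**Figure D3:**
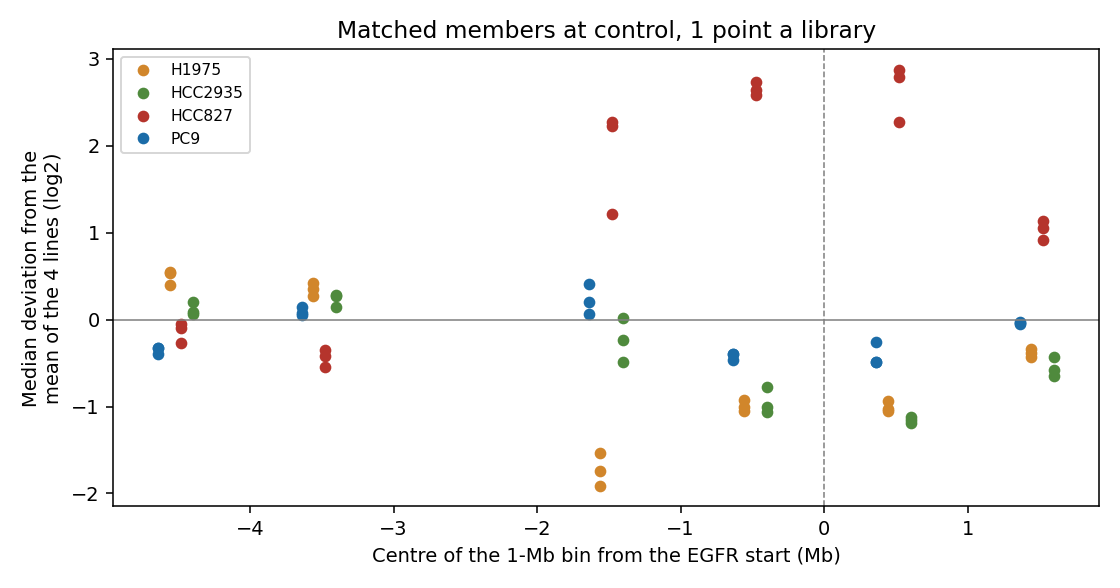
Median deviation of matched members from the mean of the 4 lines (log2 scale) per 1-Mb bin at control, against the distance of the bin centre from the EGFR start, 1 point a library. The 3 HCC827 libraries lie together with the others or below them in the first bins and above every other library in the bins on both sides of EGFR.

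Promoters and other regions were compared as a description, without a test between them. In the central stretch all 60 tested members were higher in HCC827 than in each other line, with medians of 3.28, 3.82 and 4.11. The 22 promoter members there had medians of 2.87, 3.74 and 4.08, and the 37 other annotated members 3.29, 3.96 and 4.09. Over all matched members against H1975, promoters were 44 higher and 4 lower (median 2.2) and other annotated members 47 higher and 31 lower (1.54). The 27 matched regions named EGFR, which are not members, had medians of 3.44, 4.31 and 3.92, with 25, 27 and 26 of them higher. Beside them the 69 members of the 2 bins at 54 and 55 Mb had medians of 2.92, 3.77 and 4.03, with 68 higher in each pair.

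Single members show the levels behind these medians. The most abundant matched member was an element near SEC61G, at chr7:54831741-54832242. It read 576, 561 and 572 CPM in HCC827, 75.8, 65.0 and 61.6 in PC9, 51.5, 48.3 and 43.6 in H1975, and 35.9, 33.6 and 38.5 in HCC2935. All 3 HCC827 values were close together despite the spread of the line, and no other library came near them. The log2 difference was 3.08 ± 0.104 from PC9, 3.58 ± 0.103 from H1975 and 3.99 ± 0.114 from HCC2935 (adjusted p of 1.15e-23, 2.22e-26 and 4.2e-26).

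The LANCL2 promoter (chr7:55365670-55366171) read 392, 364 and 518 CPM in HCC827. It read 72.9, 78.9 and 82.3 in PC9, 46.0, 47.7 and 50.6 in H1975, and 51.7, 52.4 and 50.4 in HCC2935. These are log2 differences of 2.45 ± 0.114, 3.15 ± 0.114 and 3.05 ± 0.122 for HCC827, and H1975 and HCC2935 did not differ from each other here (0.10 ± 0.133, adjusted p = 0.532). The VSTM2A promoter (chr7:54546517-54547018), of a secreted immunoglobulin-domain protein, read 271, 262 and 123 in HCC827, 17.7, 20.1 and 20.7 in PC9, 15.2, 14.9 and 15.6 in HCC2935, and only 1.1, 1.92 and 1.39 in H1975. Here HCC827 replicate 3 had less than the other replicates but remained above all libraries of the other lines. PSPH, the last enzyme of serine synthesis, had 273, 290 and 351 at its promoter (chr7:56051427-56051928) in HCC827 and 156 ± 6.62 in PC9, 113 ± 1.55 in H1975 and 92.5 ± 3.9 in HCC2935. Its difference from PC9 of 0.98 ± 0.0996 (adjusted p = 2.71e-10) was lost with the spread of HCC827 (adjusted p = 0.21). PSPH has a near-identical pseudogene in the window, and CCT6A, CHCHD2, GUSBP10 and FKBP9P1 have copies elsewhere, so their counts may include reads of those copies.

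One member inside the EGFR gene body set HCC2935 apart instead. It is annotated as a promoter of EGFR-AS1, an RNA transcribed against EGFR (chr7:55186168-55186669). In the 4 lines it lies 2250 to 2280 bases downstream of the EGFR-AS1 start. It read 115, 108 and 113 CPM in PC9, 94.5, 95.0 and 98.0 in H1975, 537, 505 and 379 in HCC827, and only 13.6, 7.43 and 15.1 in HCC2935. HCC2935 was lower than PC9 by a log2 difference of −3.2 ± 0.173 and than H1975 by −2.97 ± 0.171 (adjusted p of 7.32e-18 and 2.2e-17). ELDR, a long non-coding RNA just after EGFR, did not share the difference from H1975. Its promoter (chr7:55254788-55255289) had 37.3 ± 2.27 in HCC2935 and 33.0 ± 2.8 in H1975, which did not differ (0.17 ± 0.134, adjusted p = 0.263). Against PC9, all 4 listed promoters next to EGFR, ELDR among them, were lower in HCC2935.

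Some sites differed far more than their surroundings. An intronic site assigned to LANCL2 (chr7:55448976-55449477) read 501, 543 and 144 CPM in HCC827 and 5.36, 7.92 and 7.75 in PC9, a log2 difference of 5.76 ± 0.324. HCC2935 had 23.5, 24.9 and 21.1 at this site and H1975 1.98, 1.54 and 0.996, so the 4 lines did not overlap. A VOPP1 promoter site (chr7:55534137-55534638) read 223, 280 and 199 in HCC827, 55.2, 53.1 and 56.2 in PC9, 9.45, 10.6 and 11.9 in H1975 and 4.13, 3.06 and 5.96 in HCC2935. A second VSTM2A promoter site (chr7:54544576-54545077) read 259, 212 and 87.9 in HCC827, 3.71, 5.28 and 4.84 in PC9 and 7.93, 6.99 and 9.62 in HCC2935. In H1975 it read 0.44, 0.769 and 0.398 at control, below the minimum that it reached there through the treated libraries. Its H1975 values therefore cannot show a difference of that line.

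COBL, which codes for an actin nucleator, gave the members that were lowest in HCC827. A site assigned to it (chr7:51263663-51264164) read 13.7, 12.2 and 14.4 CPM in HCC827, 66.7, 47.2 and 58.7 in PC9, 62.4, 62.5 and 60.7 in H1975 and 63.5, 52.9 and 71.5 in HCC2935. Values of the 3 other lines overlapped, and HCC827 was lower by log2 differences of −2.07 ± 0.194, −2.18 ± 0.185 and −2.19 ± 0.193. At the COBL promoter (chr7:51315331-51315832) HCC827 had 15.2 ± 5.13 and PC9 49.6 ± 5.2 (−1.61 ± 0.193, adjusted p = 9.53e-09), whereas H1975 had 12.2 ± 1.83, not different from HCC827 (adjusted p = 0.134). A promoter site of GRB10, an adaptor that binds the insulin receptor (region starting at 50733549), was highest in HCC2935 (40.8 ± 4.55). It was lowest in H1975 (3.44 ± 1.47), with 22.4 ± 6.68 in PC9 and 9.22 ± 1.64 in HCC827. This order holds for that site only. On each line's own CPM scale, regions at other GRB10 starts had 12.4 in H1975 (chr7:50782286-50782787), 18.9 in HCC827 (chr7:50782221-50782722) and 13.5 in PC9 (chr7:50793337-50793838).

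Of 16 listed promoters matched in the 4 tables, 13 were higher in HCC827 than in PC9, 12 than in H1975 and 12 than in HCC2935, and 2, 1 and 3 were lower. Of all tested regions 26.6%, 25.6% and 22.4% were higher in these pairs. With the spread of HCC827 the higher ones were 6, 9 and 9. By place, all 4 next to EGFR were higher in each pair, also with the spread of HCC827. All 6 after them were higher than in PC9 and HCC2935 and 4 of 6 than in H1975, but with the spread of HCC827 this was 0, 4 and 2. Of the 5 of 7p12, 2 were higher and 2 lower than in PC9, 3 and 1 than in H1975, and 1 and 3 than in HCC2935. The genes ZPBP, SPATA48, POM121L12, SEPTIN14, ZNF479 and ZNF716 had no promoter member in any line.

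**Figure D4:**
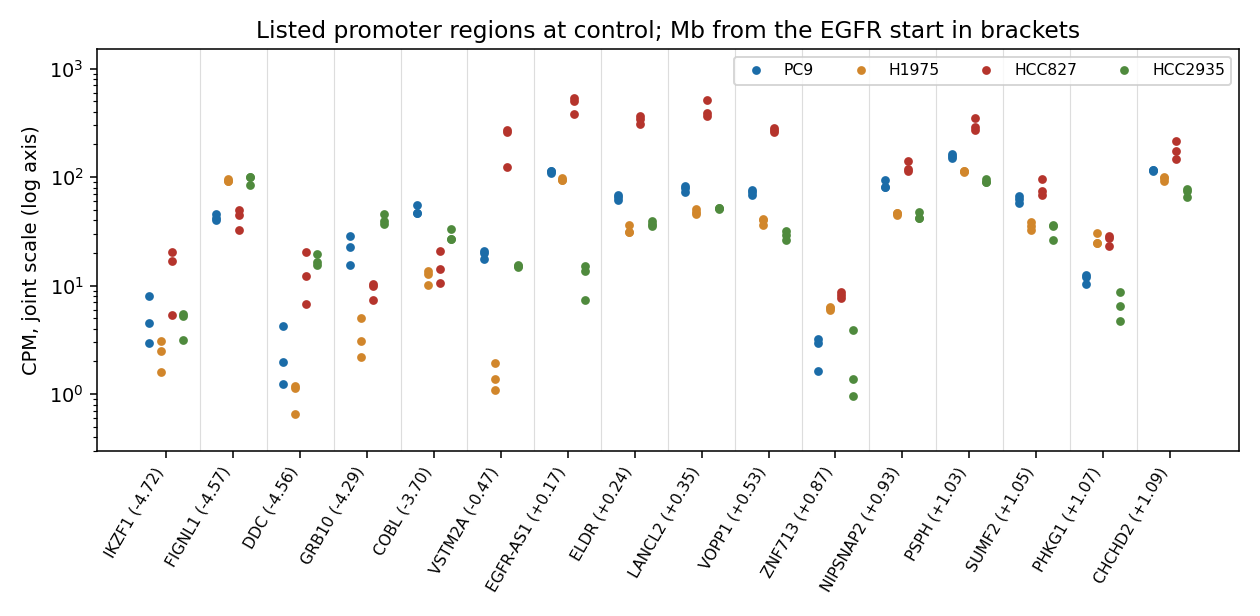
CPM on the joint scale (log axis) of 16 listed promoter regions at control in their order along the chromosome, 1 point a library, with the distance from the EGFR start in Mb in brackets. HCC827 lies above all other libraries from VSTM2A to VOPP1 and not above them at FIGNL1, GRB10 and COBL.

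The response to osimertinib was tested within each line over its whole table, with all groups of the line in the fit. In PC9, 126 of 360 tested members changed between DTP and control, 79 higher and 47 lower, where 31.7% of all tested regions were called (15.4% higher and 16.4% lower). In H1975 it was 212 of 397, 90 higher and 122 lower (51.9% of all, 24.9% higher and 27.0% lower). In HCC2935 it was 139 of 402, 42 higher and 97 lower (37.3% of all, 18.7% higher and 18.6% lower). Read against those backgrounds, the share of members called was near that of the whole table in each of these lines. With replicates summed, 76 were called in PC9 (19.4% of all) and 176 in H1975 (40.2%). The tested members are those that passed the filter on low counts, and the remaining members of these lines got no test.

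The members' medians were small: 0.16 in PC9, −0.05 in H1975 and −0.18 in HCC2935 on the log2 scale. The splits moved with the scaling. With library size alone they became 127 higher and 109 lower in H1975, where that scaling put the median of all regions at 0.22. With the members' median removed, which levels the members beforehand, they were 58 and 58 in PC9 and 57 and 73 in HCC2935. The summed share of counts in members was 2.88 per 1000 in DTP against 2.8 at control in PC9, 2.33 against 2.51 in HCC2935 and 2.39 against 2.69 in H1975, without overlap of the groups but at p = 0.1 in the exact permutation test, the smallest possible. With members of at least 20 counts per library the sign of this difference turned in PC9 (−0.0206) and in HCC2935 (0.0123).

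In HCC827 no member passed the test between DTP and control, of 3283 tested (0.0219% of all regions called). At an unadjusted p under 0.05 there were 20 members, or 0.609%, against 7.46% of all regions. Its replicate numbers paired the libraries, and with the replicate as a block 12 members were called, 7 higher and 5 lower, against 3.88% of all regions. Without the 3 replicate 3 libraries 31 were called (1.59% of all), and DESeq2 called 4 (0.484% of all). The share in members was 40.9, 51.4 and 17.9 per 1000 in DTP and 41.6, 43.1 and 25.9 in control, so the groups overlapped. A change of the block as a whole below the spread of these libraries was not detectable.

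The EGFR-AS1 site, within 3 kb of its start, gave the clearest response among the listed promoters. It fell in PC9 from 89.0, 82.9 and 86.8 CPM to 30.6, 37.1 and 31.8 (log2 difference −1.38 ± 0.082, adjusted p = 2.34e-51) and in H1975 from 66.5, 66.5 and 66.3 to 36.7, 42.6 and 41.6 (−0.72 ± 0.0682, adjusted p = 4.92e-20). In HCC827 it read 430, 394 and 355 at control and 254, 195 and 178 in DTP, which do not overlap. The difference there was −0.91 ± 0.186 with an adjusted p of 0.13, and −0.92 with an adjusted p of 0.00351 once the replicates were blocked. HCC2935, with 9.39, 5.02 and 10.3 at control and 9.88, 8.27 and 3.82 in DTP, did not pass (−0.17 ± 0.273, adjusted p = 0.643). These values are on each line's own CPM scale.

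Next to EGFR the DTP differences at the LANCL2, ELDR and VOPP1 promoters were small. LANCL2 read 56.2, 60.6 and 63.2 in PC9 control and 57.8, 55.9 and 56.1 in DTP, and its differences in the 4 lines lay between −0.17 and 0.13 with none past the threshold. Those of ELDR lay between −0.18 and 0.16, again with none past it. SEC61G lies on the other side of EGFR, and its listed regions are not the one printed above, which is annotated SEC61G-DT. In PC9 a weak region (chr7:54759705-54760206, 4.05 CPM at control) rose (0.77 ± 0.259, adjusted p = 0.0131, but 0.0925 with replicates summed). Other regions in HCC827 (chr7:54761790-54762291) and HCC2935 (chr7:54758506-54759007) had differences of 0.29 and 0.55 that did not pass. No DTP value is given for the printed region. VOPP1, at another start than the printed one (chr7:55552568-55553069 in PC9), passed in PC9 alone (−0.22 ± 0.0832, adjusted p = 0.0267, but 0.533 with replicates summed). Over all listed promoters, 5 rose and 4 fell of 19 in PC9 (29.5% of all promoters called), 1 rose and 4 fell of 14 in H1975 (53.1%), 1 rose and 3 fell of 15 in HCC2935 (36.3%) and none of 19 in HCC827 passed the threshold (0.00612%). With replicates summed 2 rose and 2 fell in PC9 and 1 rose and 2 fell in H1975. In 7p12, IKZF1, a lymphoid transcription factor, rose in PC9 from 3.49, 2.28 and 6.2 to 9.48, 7.22 and 9.01 (1.08 ± 0.246, adjusted p = 0.000125), and DDC, an enzyme of dopamine synthesis, rose in PC9 (1.33 ± 0.336) and fell in HCC2935 (−0.79 ± 0.217).

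The largest single rise was at a shared site. At 16 of the 32 members named by size of change in these contrasts, the lower group had a mean under 10 counts per library, and such a member was tested because of its higher group. Among the rises in DTP these were 5 of 6, so their values are given without a test. A distal region between ELDR and LANCL2 (chr7:55308133-55308634 in PC9) rose from 3.49, 0.761 and 1.74 CPM at control to 22.8, 24.2 and 23.5 in DTP (log2 difference 3.62), or from a mean of 7 to 94 counts. In HCC2935 the region there (chr7:55308145-55308646) rose from 0.874, 0.591 and 0.626 to 16.7, 17 and 12 (4.37), or from 2.67 to 84.7 counts. The site was looked up in the remaining lines after these values had been seen. In H1975 it read 0.155, 0.135 and 0.27 at control and 1.54, 0.907 and 1.68 in DTP and was below the filter, so it got no test. In HCC827 it read 13.4, 26.1 and 13.9 at control and 22.9, 26.8 and 36.3 in DTP, which overlap (0.71 ± 0.589, adjusted p = 1.0, and 0.357 with the replicates blocked). AZD5153 alone left it at 2.63, 1.62 and 0.469 in PC9.

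Distal sites assigned to GRB10 gave the largest falls. In H1975 the site at chr7:50803338-50803839 fell from 14.1, 15.9 and 13.1 CPM to 1.15, 0.34 and 0.336 (−4.57) and that at chr7:50837962-50838463 from 7.42, 5.78 and 4.18 to 0.256, 0.454 and 0.56 (−3.69), with 5 and 3.67 counts left on average. Regions overlapping the first, looked up afterwards, fell by 1.18 in PC9 (adjusted p = 0.00293) and by 1.36 in HCC2935 (adjusted p = 0.000121). That in HCC827 had −0.42 (adjusted p = 0.7 with the replicates blocked). HCC2935 also lost most of a promoter site of NIPSNAP2, a mitochondrial protein (chr7:55965963-55966464), from 31.9, 28.3 and 32.9 to 5.32, 6.62 and 4.77 (−2.46 ± 0.186). PC9 fell by 1.52 at the overlapping region (adjusted p = 0.00118). H1975 had −0.43 (adjusted p = 0.339) and HCC827 −0.48 (adjusted p = 0.609 with the replicates blocked). In H1975 a VOPP1 promoter site (chr7:55574067-55574568) rose from 1.08, 1.08 and 1.35 to 9.09, 9.64 and 10.2 (3.03, from a mean of 8.33 counts). The overlapping region in PC9 read 0.953, 2.03 and 2.23 at control and 5.83, 3.09 and 5.01 in DTP. That in HCC2935 read 0.655, 0.886 and 0.626, then 2.47, 1.65 and 2.29. With such low control values both passed the filter through treated libraries, so no test is given. In HCC827 the groups overlapped (−0.11 ± 0.392, adjusted p = 0.932 with the replicates blocked).

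Along the window the changes were uneven. The gene-poor bins before EGFR held few members that could be tested. From 53 to 54 Mb 14 of 36 were tested in PC9, of which 9 were called higher, and 8 of 10 in H1975, all called higher. From 52 to 53 Mb it was 4 of 5 tested in PC9 and 9 of 10 in H1975. The control mean was under 10 counts per library at all 17 of these calls in H1975 and at 8 of the 13 in PC9. Such members passed the filter on low counts through the treated libraries, which fixed a rise, so these counts support nothing. From 51 to 52 Mb, around COBL, 32 of 74 members fell and 8 rose in H1975 (median −0.43). In HCC2935 27 of 101 fell and 13 rose in the bin that holds EGFR.

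The regions named EGFR had a median DTP difference of −0.20 in HCC827, 0.23 in HCC2935, 0.01 in PC9 and −0.44 in H1975, beside −0.05, −0.27, 0.20 and −0.15 for the members of the 2 bins around it. Differences between the 2 sets were not tested.

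**Figure D5:**
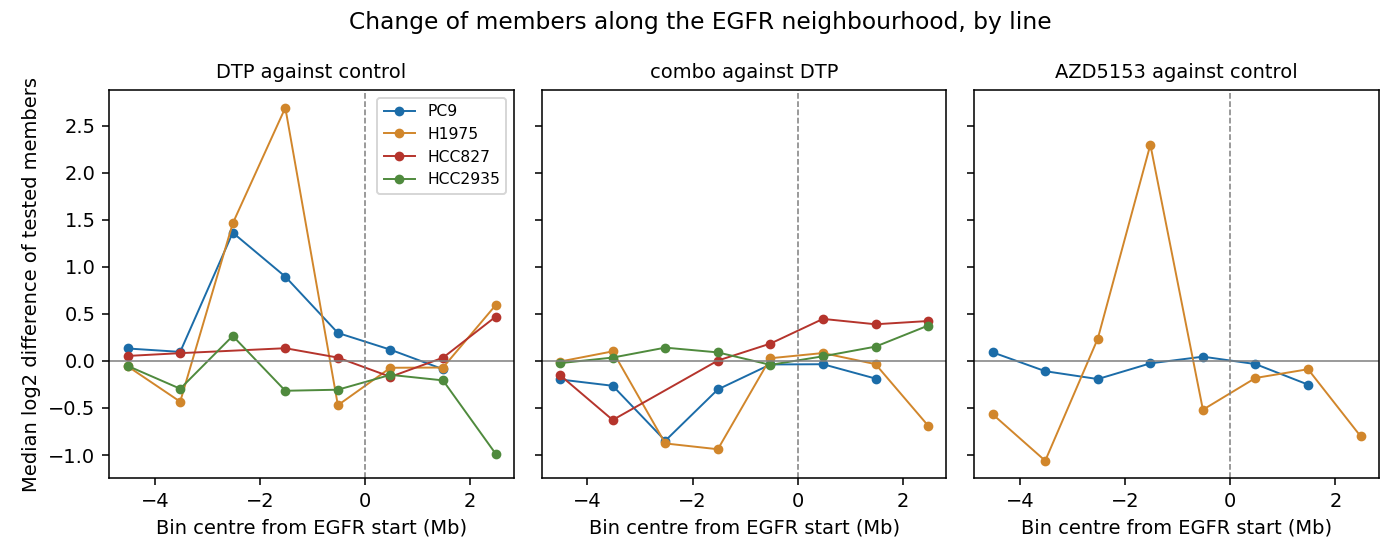
Median log2 difference of tested members per 1-Mb bin (bins with at least 5 tested members) against the distance of the bin centre from the EGFR start, in 3 panels for DTP against control, combo against DTP and AZD5153 against control, 1 line of points per cell line. The high H1975 points of 2.69 and 2.30 in the gene-poor bin before EGFR, in the panels for DTP and for AZD5153 alone, rest on 8 members with a control mean under 10 counts, which passed the filter through the treated libraries and had to lie high, and HCC827 has no member past the threshold in either of its panels.

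Adding AZD5153 to the persisters moved fewer members. Combo and DTP differed at 98 of 360 members in PC9, 35 higher and 63 lower (22.3% of all regions, 10.6% higher and 11.7% lower). In H1975 they differed at 94 of 397, 48 higher and 46 lower (21.0%, 11.5% higher and 9.48% lower). For HCC2935 the count was 20 of 402, 4 higher and 16 lower (8.31%, 1.9% higher and 6.4% lower). With replicates summed these were 42 in PC9 (8.11% of all) and 23 in H1975 (5.97%). The splits again moved with the scaling, to 27 and 55 in H1975 with library size alone. With the members' median removed, which levels the members beforehand, they were 51 and 53 in PC9 and 1 and 16 in HCC2935. In H1975 the count was 62 without combo replicate 3 (13.0% of all). In HCC2935 it was 8 to 13 with any 1 of the 6 libraries left out (3.82% and 5.17% of all at these ends).

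In HCC827 no member of 3283 passed (0.0% of all regions called), with 17 at an unadjusted p under 0.05, or 0.518% against 2.63% of all regions. DESeq2 (0.0% of all) and the fit with the replicate block (0.0304% of all) also called 0 members, and 1 was called without the replicate 3 libraries (0.0238% of all). The combo libraries held 59.2, 43.7 and 18.0 counts per 1000 in members, overlapping those of DTP.

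The IKZF1 promoter rose further in PC9, from 9.48, 7.22 and 9.01 CPM in DTP to 18.0, 19.4 and 19.2 in the combo (1.13 ± 0.166, adjusted p = 2.56e-09). A FIGNL1 promoter site (chr7:50446472-50446973) read 12.6, 8.77 and 11.5 in PC9 DTP and 2.44, 2.12 and 2.4 in the combo (−2.23, with a mean of 9 counts left), after 34.9, 32.5 and 31.0 at control. With AZD5153 alone that site had 30.2, 31.8 and 30.3, of which 1 lay within the range of the control libraries and 2 just below it. In H1975 the overlapping site had instead 36.2, 43.2 and 38.7 in DTP and 50.4, 49.0 and 49.4 in the combo (0.33, adjusted p = 0.000141, and 0.412 with replicates summed). At the FIGNL1 start itself, the promoter printed above, PC9 had 0.14 (adjusted p = 0.452) and H1975 rose by 0.56 (adjusted p = 1.02e-05). Of the listed promoters 5 rose and 3 fell in PC9 (27.4% of all promoters), 6 rose and none fell of 14 in H1975 (33.8%), and none passed in HCC827 (0.0%) or HCC2935 (9.77%). With replicates summed 1 rose and 2 fell in PC9, and none of the 14 passed in H1975.

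The 4 members that rose in the HCC2935 combo were named after their values were seen. They are a site in ZPBP (chr7:50093055-50093556, 0.97 ± 0.317), a site in COBL (chr7:51249151-51249652, 1.27 ± 0.344), a site nearest LOC101928257 (chr7:52598863-52599364, 0.54 ± 0.176) and a VOPP1 promoter site (chr7:55571521-55572022, 0.54 ± 0.176). The VOPP1 site is the one printed above, and it rose from 11.4, 12.2 and 10.3 to 15.2, 17.7 and 16.5 CPM (adjusted p = 0.0434). The region overlapping it in H1975 rose by 0.54 too (adjusted p = 2.61e-05), and that in PC9 had −0.22 (adjusted p = 0.171).

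AZD5153 alone changed 102 of 360 members in PC9, 51 higher and 51 lower (25.8% of all regions called, 14.6% lower and the rest higher). In H1975 it changed 226 of 397, 59 higher and 167 lower (58.1% of all, 26.7% higher and 31.4% lower). With replicates summed these were 59 (14.1% of all) and 192 (48.2%). In H1975 the lower calls outnumbered the higher ones also with library size alone (89 higher and 139 lower, with all regions at a median of 0.18). With the members' median removed the split was 107 and 128, but that setting levels the members beforehand and cannot decide the direction. The share in members there was 1.95 ± 0.0299 counts per 1000 with AZD5153, below all control libraries (2.69 ± 0.0422). AZD5153 and DTP are both compared with the same control libraries.

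The losses in H1975 were spread over 7p12. From 51 to 52 Mb 53 of 74 members fell and 3 rose (median −1.06), and from 50 to 51 Mb 42 of 99 fell and 15 rose. A distal site assigned to COBL (chr7:51350044-51350545) fell from 32.3, 28.7 and 29.1 CPM to 1.55, 1.22 and 1.71 (−4.28 ± 0.169, adjusted p = 6.08e-67). An intronic site assigned to SEC61G (chr7:54785255-54785756) fell from 30.8, 29.2 and 29.8 to at most 2.26 (−4.23 ± 0.167). The overlapping regions in PC9 had log2 differences of 0.35 and −0.40, and the difference between the lines was not tested at these sites.

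At the listed promoters of H1975, 8 of 14 fell and 1 rose with AZD5153 (69.3% of all promoters called). With the members' median removed the split was 6 higher and 5 lower, and with replicates summed 1 higher and 5 lower. The FIGNL1 site within 3 kb of the start fell from 68.0, 64.6 and 62.2 to 22.2, 17.4 and 16.5 CPM (−1.79). A VOPP1 start region (chr7:55552548-55553049) fell from 25.4, 28.4 and 27.6 to 12, 10.8 and 10.8 (−1.27), and both stayed past the threshold in these alternatives. The VOPP1 region at the printed promoter (chr7:55571517-55572018) did not fall, with 10.2, 7.53 and 8.63 at control and 9.42, 13.1 and 12.1 with AZD5153. The region at the FIGNL1 start rose by 0.53 (adjusted p = 2.02e-05). CCT6A, a chaperonin subunit, was the 1 that rose (1.02, adjusted p = 5.43e-06). In PC9 2 rose and 5 fell of 19 (25.4%), and none rose and 2 fell with replicates summed, led by COBL, from 42.9, 35.5 and 36.2 to 20.6, 19.9 and 17.8 (−0.96, adjusted p = 8.85e-15). A GRB10 intronic site (chr7:50771285-50771786) gave the largest fall in PC9, from 10.5, 8.87 and 8.68 to 0.718, 0.696 and 0.235 (−4.0, with a mean of 2.33 counts left), and a VOPP1 intronic site (chr7:55504378-55504879) the largest rise, from 3.18, 4.56 and 3.72 to 21.5, 23.9 and 22.0 (2.53 ± 0.193).

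Finally, the DTP response was compared between the 4 lines at the 161 matched members in 1 fit with a line-by-treatment term. It differed between lines at 61 members, or 37.9%, where 37.2% of all 81122 matched regions tested were called. With the replicate number as a block in each line it was 79, or 49.1%, against 39.4% of all, and with a reciprocal overlap of at least 80% it was 62 of 127, or 48.8%, against 40.2%. The median response was −0.10 for HCC827, −0.12 for HCC2935, 0.08 for PC9 and 0.02 for H1975.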

How the data were processed

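ATAC-seq was measured in 42 libraries, 3 for each of 14 groups set by the labels. The authors deposited, for each line, raw read counts in regions of 502 bp (hg38) and an annotated subset that names each region's gene and class, which defined EGFR and promoter regions here. The deposited peak lists, called per library, hold a fold enrichment (a ratio), −log10 p and −log10 q, of which positions and q were used. The submitters' processing notes name BWA 0.7.17, SAMtools 1.9, deepTools 3.4, MACS2 2.2.6, featureCounts 2.0.0 and ChIPseeker 1.29.1. Nothing in the sources says how reads with several matches were counted. Members, gene lists and tests were chosen with earlier results of these data known.

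Each line's whole table was fitted with the quasi-likelihood test of edgeR 4.0.16 (R 4.3.3), with TMM scaling, filterByExpr, all groups in 1 fit and Benjamini-Hochberg adjustment with a threshold of 0.05. The regions tested numbered 82309 for HCC827, 154179 for HCC2935, 126506 for PC9 and 191202 for H1975. For the 12 control libraries, regions of the 4 tables were matched to PC9 as mutual best hits with a reciprocal overlap of at least 50%, and a matched member reached 5 counts in all 4. CPM uses TMM-scaled library sizes. SE is the standard error of a log2 difference and SD that of replicates. Named members were the listed promoters, the 3 most abundant matched members and, per contrast, up to 2 of the largest rises and falls among called members with non-overlapping groups and above-median mean. Shares and peaks were compared by exact two-sided permutation (scipy 1.17.1). The scripts were tested on simulated counts. P-values measure only the spread between libraries of 1 line.

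Whether libraries with the same replicate number deviate together from their group means was checked by correlation. In HCC827 it was 0.257 to 0.827 over 9 pairs, so its libraries were read as paired and the blocked value is given. In PC9, H1975 and HCC2935 the lowest was −0.01, −0.062 and −0.074, so the numbers were not taken as pairs.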

Additional observations from a re-analysis of the deposited data

Results flagged for a closer look

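The DTP response differed between the 4 lines, by the line-by-treatment term of the edgeR fit, at 61 of 161 matched members (37.9%, against 37.2% of all matched regions), or at 79 (49.1% against 39.4%) with the replicate block. Among the 16 listed promoters matched in the 4 tables it differed at 5, a share not above the 37.2% of all matched regions. They are given as log2 differences of DTP from control for PC9, H1975, HCC827 and HCC2935 in this order. IKZF1 had 1.14, −1.06, −0.49 and −0.12 (adjusted p = 0.0269), a FIGNL1 site within 3 kb of its start −1.51, −0.66, −0.01 and −0.33 (adjusted p = 0.000197) and DDC 1.39, −0.75, −0.38 and −0.85 (adjusted p = 0.0198). Levels were low at IKZF1 in H1975 (2.16, 1.75 and 1.08 CPM at control, 1.02, 0.454 and 0.784 in DTP). The same holds for DDC at control in PC9 (0.953, 1.52 and 3.22), each on the line's own scale. A COBL site (chr7:51315331-51315832) had −0.64, 1.01, −0.22 and −0.42 (adjusted p = 6.92e-07). The H1975 region at the COBL start (chr7:51316202-51316703) had −0.04 in the H1975 fit (adjusted p = 0.769). The EGFR-AS1 site within 3 kb of its start had −1.32, −0.66, −0.87 and −0.25 (adjusted p = 0.0114), with overlapping groups in HCC2935.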

How the results depend on the processing

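The counts of matched members that differed between lines stayed within 1.5 times in 93 of 94 alternatives, the exception being HCC827 against PC9 with the spread of HCC827 (80, chosen after seeing the data). Within lines, 111 of 140 alternative counts of called members did so. With a minimum of 20 counts for a member, fewer members qualify: 129 were tested in PC9, 176 in H1975 and 124 in HCC2935. The DTP counts were 68, 110 and 47 in that order (31.7%, 51.9% and 37.3% of all regions). Those of the combo were 50, 58 and 13 (22.3%, 21.0% and 8.31%). Those of AZD5153 were 51 in PC9 and 128 in H1975 (25.8% and 58.1%). The called share of tested members was larger than in the main fit each time. With replicates summed PC9 had 76 for DTP (19.4% of all regions), 42 for the combo (8.11%) and 59 for AZD5153 (14.1%), and H1975 23 for the combo (5.97%). DESeq2 called 4 members for DTP in HCC827 (0.484% of all) and 82 in HCC2935 (24.9%). For the combo it called 48 of 360 in PC9 (9.88%), 38 of 337 in H1975 (8.77%) and 5 of 265 in HCC2935 (3.01%). For AZD5153 it called 60 in PC9 (14.8%). For HCC827, 12 were called for DTP with the replicate block (3.88% of all). Without the replicate 3 libraries (chosen after seeing the data) it was 31 for DTP (1.59%) and 1 for the combo (0.0238%). With no filter HCC2935 had 7 of 825 for the combo (2.15% of all). Leaving out 1 library gave 62 (without combo replicate 3, 13.0% of all) to 77 (without DTP replicate 2, 16.0%) for the H1975 combo. For the HCC2935 combo it gave 8 (without DTP replicate 2, 3.82%) to 13 (without DTP replicate 3, 5.17%).

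The replicate block gave 127 in place of 126 for DTP in PC9 and 79 (49.1% against 39.4% of all regions) in place of 61 (37.9% against 37.2%) for the line-by-treatment term, and outside HCC827 it moved no count of called members by over 1.5 times. The sign of the difference in counts per 1000 turned in 9 of 128 alternatives: with a minimum of 20 for DTP in PC9 (−0.0206) and HCC2935 (0.0123), for HCC827 DTP with counts outside chromosome 7 as the denominator (0.017), and on leaving out 1 library for HCC827 DTP (−7.47 to 9.31), the H1975 combo (−0.0192 to 0.032) and the HCC827 combo (−5.9 to 14.7). The difference in peaks per library turned with −log10 q of at least 5 for DTP in HCC827 (−407) and HCC2935 (31) and for AZD5153 in PC9 (22). Without 1 library it ran from −332 to 478 for HCC827 DTP, −310.0 to 500.0 for the HCC827 combo, −18.3 to 7.33 for the HCC2935 combo, −128 to 15.2 for AZD5153 in PC9 and −99.8 to 44.2 for AZD5153 in H1975. Beyond the smaller number of members at a minimum of 20, the cause was not tested. The exact test of 3 against 3 cannot go below 0.1, and the spread and depth of HCC827 limit what its contrasts can show.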
